A study of Mus musculus with 30 samples.

Results

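The genes described are 10 core members of the Notch pathway in the mouse forelimb bud: the receptors Notch1, Notch2 and Notch3, the ligands Dll1, Dll4, Jag1 and Jag2, and the target genes Hes1, Hey1 and Heyl. They were taken by gene symbol from the 50833 genes of the deposited count table, and all 10 were found and passed the filter on low counts in every comparison. The 30 polyA RNA-sequencing libraries were made from forelimb buds of wild-type Swiss Albino mouse embryos. Pregnant females were injected at embryonic day E10.5 with DMSO in PBS or with Wnt-C59 (C59). The C59 came from a stock in DMSO and was diluted in PBS with methylcellulose, Tween-20 and DMSO. The vehicles of the groups thus differed, so that vehicle and inhibitor cannot be told apart in any comparison of C59 with DMSO. Embryos were collected 1, 6, 12, 18 or 24 h after injection, giving 10 groups of 3 libraries. C59 inhibits porcupine, the acyltransferase that WNT ligands need to be secreted, so it acts on WNT signalling in general, and it was given to the whole animal rather than to 1 cell type. Every library came from the paired forelimb buds of 1 embryo, replicates came from different embryos of at least 3 litters, embryos of both sexes were used, and C59-treated embryos were staged by the time since injection and by limb bud size. Which embryos were littermates is not given in the sources used here.

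Notch is a receptor that is activated by contact between neighbouring cells. Delta-like (Dll) and Jagged (Jag) ligands on one cell bind Notch on the next, proteases then cut the receptor, and its intracellular domain enters the nucleus and joins the DNA-binding protein Rbpj to switch on genes such as Hes1, Hey1 and Heyl, which encode basic helix-loop-helix repressors. In the limb bud the pathway is known from the vessel endothelium (Dll4, Notch1), from the apical ectodermal ridge (Jag2, Notch1), from the mesenchyme (Jag1, Hes1) and from muscle precursors (Dll1, Hey1 and Heyl).

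Axin2, a feedback target of canonical WNT signalling that serves here as the check of the treatment, was measured in CPM (read counts relative to the total of the library, with TMM scaling). At 6 h its level was 108.0, 117.6 and 104.4 CPM in the DMSO libraries and 28.96, 29.23 and 26.49 CPM in the C59 libraries. Its log2 fold change, C59 against DMSO, was −0.19, −1.97, −1.45, −0.16 and −0.08 at the 5 times in order, and the first 3 of these passed the test used throughout (edgeR quasi-likelihood F test, Benjamini-Hochberg adjusted p below 0.05 over all genes tested). The 1 h call of Axin2 was lost without any 1 library but DMSO replicate 3, with all 30 libraries in one fit, with limma and with the replicate block, with an adjusted p of up to 0.151. The libraries held between 18188636 and 38974885 counts. The tissue label was checked against its markers: Tbx5, a forelimb gene, had group means from 191.0 to 317.8 CPM, and the hindlimb gene Pitx1 had group means from 0.4875 to 4.442 CPM. Of the 30 libraries, 5 stood apart from both other libraries of their group, with a chi-square per degree of freedom over genes of 20.8 to 42.2 against 3.31 to 11.7 for the remaining pairs: DMSO replicate 1 at 1, 6 and 18 h, C59 replicate 3 at 18 h and C59 replicate 2 at 24 h. The sex of the embryos was not balanced either. The summed level of 4 Y-linked genes was 19.8 to 33.2 FPKM in the C59 libraries of 6 h and 0 in the DMSO libraries of 6 h, so that sex and treatment cannot be told apart there. At 1 h these genes summed to 21.3 to 38.2 FPKM with C59 and 0.0469 to 9.03 FPKM with DMSO. These ranges do not overlap, so that the Y-linked level and treatment cannot be told apart at 1 h either. At 24 h the sums were 19.3 to 25.0 FPKM with C59 and 0.0147 to 20.1 FPKM with DMSO.

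The members lie on autosomes (mm10 coordinates). Among the receptors, Notch1 is at chr2:26457903-26516663, Notch2 at chr3:98013538-98150361 and Notch3 at chr17:32120820-32166852. Among the ligands, Dll1 is at chr17:15367354-15376872, Dll4 at chr2:119325784-119335962, Jag1 at chr2:137081456-137116644 and Jag2 at chr12:112907819-112929776. The target Hes1 is at chr16:30065340-30067796, Hey1 at chr3:8663359-8667256 and Heyl at chr4:123233556-123249875. Counted genes that overlap a member (of Notch1, Notch2, Notch3, Dll4 and Jag2) reached at most 0.926 CPM in any library, and the lincRNA A930024N18Rik, annotated on the strand opposite Dll1, has no row in the count table. The FPKM were computed with the unstranded setting of Cufflinks, and the strand setting of the counts is not given in the sources used here, so reads of these partners cannot be fully told apart.

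Promoter sequence was at hand for 7 of the 10 members, in 8 windows running from 250 bases before to 50 bases after a RefSeq transcription start (GRCm38.p6); Hes1, Hey1 and Heyl had no window. Because Hes and Hey proteins are known to bind CACGCG, the class C site, the windows were searched for it on both strands, and 5 of the 8 held it, for Dll1, Dll4, Jag1, Jag2 and Notch2. Among all 32851 promoter windows 9.27% held the site, and among the 11378 windows with at least 15 CG dinucleotides, the lowest number in a member's window, 23.1% did. The windows of the members held 15 to 63 CG dinucleotides, so that the latter share is not matched to each of them. Dll1 alone had a further window, which lacked the site. Of these 5 genes Dll1, Jag2 and Notch2 passed the test at 12 h, when 47.5% of all genes tested did. Notch1 and Notch3, whose windows lacked the site, passed as well, and a link between site and call was not tested. The stretches around the sites are shown 5′ to 3′ on the strand of the gene, with the motif in capitals. They show which ligands and which receptor hold the site.
Dll1, chr17:15376983-15377012, minus strand: cttaatgacagcCACGCGaacgacacacac
Dll4, chr2:119325577-119325606, plus strand: ctgctcgccgggCACGCGcagagctggaag
Jag1, chr2:137116674-137116703, minus strand: gagccaggcgggCACGCGtcattgtgttac
Jag2, chr12:112929460-112929489, minus strand: cggcgatgcgggCACGCGgctggggacgcc
Notch2, chr3:98013484-98013513, plus strand: gaggcggaaggaCACGCGggccgcccagcc
The Jag2 site starts 19 bases after the transcription start and the other 4 lie upstream, between 195 bases before it for Dll4 and 42 bases before it for Notch2. Jag1 held another copy, read as CGCGTG, at the far end of its window. The Rbpj site GTGGGAA, present in 6.38% of all windows, the TCF/LEF site written as CTTTGAA or CTTTGAT (8.65%) and the E-box CACGTG (7.15%), each searched on both strands, were found in 0 of the 8 windows, which says only that these letters are not in these 300 bases.

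Levels can be compared between genes only per transcript length, and for this the deposited FPKM (fragments scaled to transcript length and library size) were used. In DMSO forelimb buds at 1 h the order of the group means was Notch3 (30.7 FPKM), Hes1 (23.4), Hey1 (14.2), Notch2 (10.53), Jag2 (6.34), Notch1 (5.54), Jag1 (4.77), Dll4 (2.77), Heyl (1.03) and Dll1 (0.743). Only the neighbours Jag2 and Notch1 overlapped between libraries in this order. At 24 h Hes1 (33.1 FPKM) stood above Notch3 (28.5), and Jag1 (7.94), Notch1 (7.34) and Jag2 (6.90) lay close together, with Jag1 overlapping Notch1 and Notch1 overlapping Jag2. Dll1 (2.69 FPKM), Dll4 (2.26) and Heyl (2.22) were then the lowest, and Dll4 and Heyl overlapped. The receptor Notch3 and the repressor Hes1 were thus at the top and 2 ligands with Heyl at the bottom at both ends of the course. The low genes were also the least precisely counted, with as few as 63 counts for Dll1, 100 for Heyl and 154 for Dll4 in a library, where counting error alone is 12.6%, 10% and 8.06%, against 2.07% or less for Notch2 and Notch3.

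The DMSO libraries show how these genes moved over a day without inhibitor. Of the 10 members, 6 were higher and 2 lower at 24 h than at 1 h, in a comparison in which 30.2% of all genes tested were higher and 29.2% lower. Dll1 rose most. Its level in the DMSO libraries was 4.064, 3.382 and 4.341 CPM at 1 h and 12.92, 13.67 and 12.92 CPM at 24 h, a log2 fold change of 1.73 ± 0.12 (SE, adjusted p = 2.97e-08). Heyl followed with 1.03 ± 0.13, from 5.39 to 7.06 CPM at 1 h to 11.3 to 13.7 CPM at 24 h, with no overlap. Jag1 rose by 0.64, Hes1 by 0.40, Notch1 by 0.30 and Hey1 by 0.21 on the log2 scale. The DMSO group mean of Jag1 was highest in between, at 37.4 CPM at 1 h, 81.2 CPM at 18 h and 58.3 CPM at 24 h. Dll4 fell by 0.29 and Notch3 fell by 0.19 on the log2 scale, while Notch2 (0.18 ± 0.08) and Jag2 (0.01 ± 0.05) did not pass. The call of Dll4 was lost without DMSO replicate 3 of 1 h or replicate 1 of 24 h, and that of Hey1 without replicate 3 of 24 h.

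**Figure D1:**
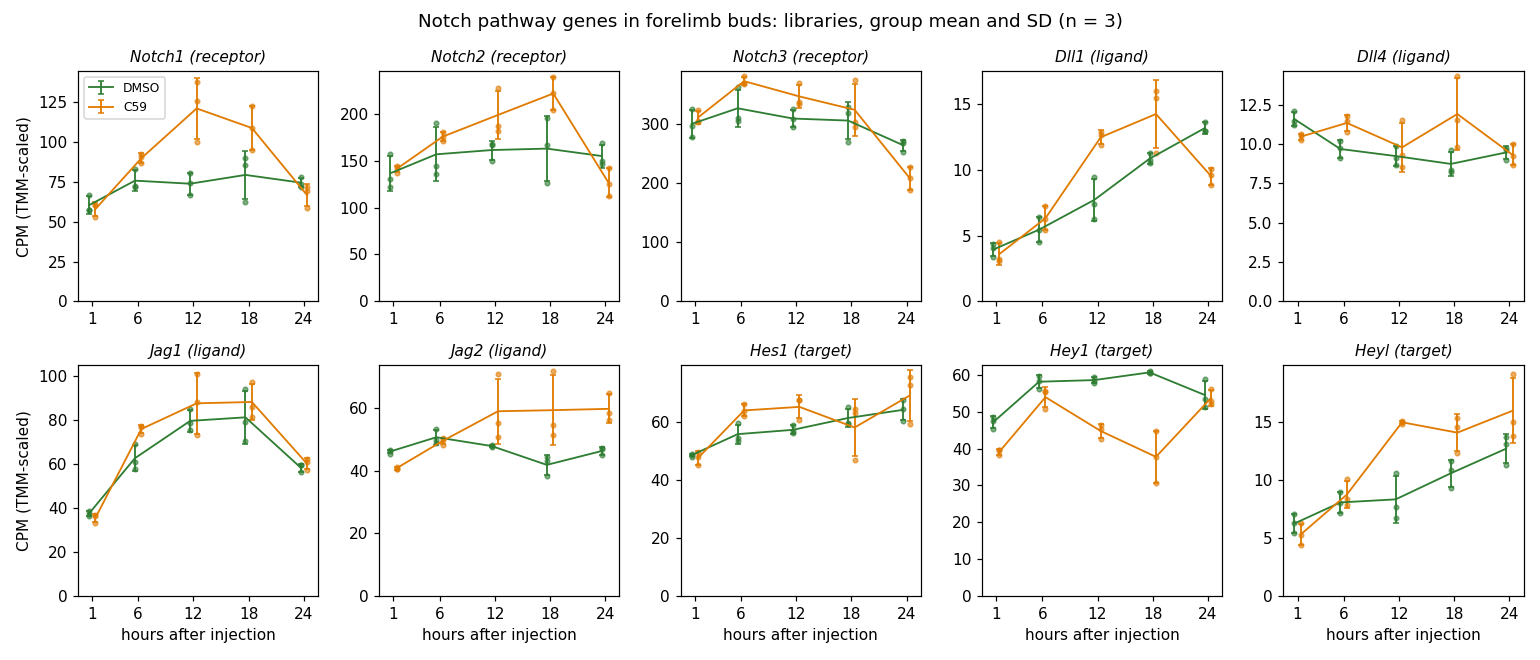
Level of each member in CPM (y axes, each starting at 0) against hours after injection (x axes), with points for libraries, lines for group means and bars for the SD of 3 libraries, DMSO in green and C59 in orange. Notch1, Dll1 and Heyl lie above DMSO at 12 h in every C59 library, Hey1 lies below DMSO at 1, 6, 12 and 18 h, and at 24 h the C59 and DMSO ranges of Hey1 overlap.

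The comparison of C59 with DMSO at each time asks how these transcripts differed between the groups. In it the inhibitor cannot be told apart from the vehicle or, at 1 h and 6 h, from the Y-linked level. At 12 h, 7 members were higher and 1 was lower, in a comparison in which 22% of the 13324 genes tested were higher and 25.5% lower; Dll4 and Jag1 did not pass. At 6 h, 4 members were higher and 0 lower, against 8.2% and 11.4% of all genes tested. At the other times few members passed in these fits, each on its own 6 libraries. At 1 h 0 were higher and 1 was lower (background 1.14% higher and 1.61% lower), at 18 h likewise 0 and 1 (3.46% and 3.62%), and at 24 h 1 was higher and 2 were lower (2.88% and 3.56%). The unadjusted p was under 0.05 for 2, 4, 8, 7 and 5 of the 10 members at the 5 times in order, and for 17%, 33.2%, 54.7%, 24% and 22.1% of all genes tested. At 18 h the spread between libraries was wider than at the other times, with a biological coefficient of variation of 12.5% against 5.41% to 7.52%. The count at 18 h depended on the fit. With all 30 libraries in one fit 7 members passed at 18 h (27.5% of all genes tested) and 5 at 12 h (42.2%).

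The changes were small. No member passed the stricter rule that also asks for a log2 fold change beyond 1, a rule met by 0.283%, 1.17%, 4.95%, 1.29% and 0.819% of all genes tested at the 5 times in order. The median log2 fold change of the 10 members was −0.11, 0.19, 0.24, 0.42 and −0.02 in the same order, and that of all genes tested lay between 0.0012 and 0.0175. The C59 and DMSO libraries did not overlap for 3, 6, 8, 6 and 6 of the 10 members, and for 22%, 36.8%, 57.1%, 34.2% and 27.7% of all genes tested. The sign of the fold change was positive for 8 members at 6 h, 9 at 12 h and 8 at 18 h, but for only 2 at 1 h and 4 at 24 h.

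**Figure D2:**
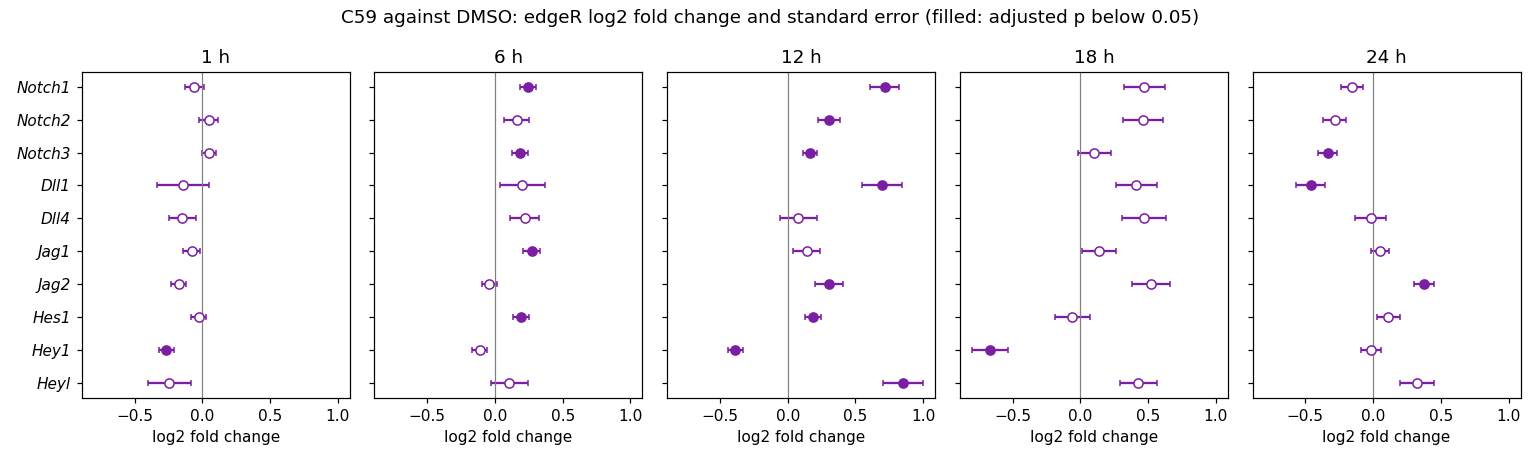
Log2 fold change of each member, C59 against DMSO, at 1, 6, 12, 18 and 24 h (x axes), with bars for the standard error of the edgeR fit and filled points where the adjusted p was below 0.05. Points to the right of the grey line are higher with C59; Hey1 is to the left at every time and is filled at 1, 12 and 18 h, and the largest value is that of Heyl at 12 h, 0.85.

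Of the receptors, Notch1 had the largest log2 fold change. At 6 h its level was 71.67, 83.3 and 72.31 CPM with DMSO and 92.59, 86.62 and 90.37 CPM with C59, and at 12 h it was 74.17, 80.61 and 66.75 CPM with DMSO and 99.92, 137.6 and 125.7 CPM with C59. The groups did not overlap at either time. The log2 fold change was 0.24 ± 0.06 (adjusted p = 0.0125) at 6 h, a call lost without DMSO replicate 3, C59 replicate 1 or C59 replicate 3, and 0.72 ± 0.11 (adjusted p = 0.000293) at 12 h. All 3 C59 libraries of 12 h were above each of the 15 DMSO libraries of the whole course, whose range was 57.1 to 90.1 CPM, so no DMSO library reached this level. At 18 h the C59 libraries held 108.8, 95.15 and 122.4 CPM, still above the DMSO libraries at 62.42, 90.09 and 85.58 CPM, but the difference of 0.47 ± 0.15 did not pass (adjusted p = 0.0976). Without both libraries that stand apart at 18 h, a choice made after seeing the data, it was 0.24 and passed (adjusted p = 0.0177). In that fit 4 members passed at 18 h in place of 1, and 24.6% of all genes tested did, so that calls became more frequent among all genes.

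Notch2 followed a similar course at a higher level. At 12 h it stood at 167.4, 166.8 and 149.6 CPM with DMSO and 186.8, 227.6 and 181.6 CPM with C59, which do not overlap, with a log2 fold change of 0.30 ± 0.08 (adjusted p = 0.0112) that did not pass without DMSO replicate 3. At 18 h the C59 libraries, 222.0, 203.5 and 239.1 CPM, again lay above the DMSO libraries, 126.1, 195.7 and 166.6 CPM, and the value of 0.46 ± 0.15 did not pass (adjusted p = 0.104), whereas it was 0.25 and passed without both libraries that stand apart (adjusted p = 0.0154). At 24 h the C59 libraries were the lower ones. The level was 168.9, 145.9 and 149.7 CPM with DMSO and 125.0, 112.0 and 142.6 CPM with C59, with no overlap but an adjusted p of 0.0614.

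Notch3, the most abundant receptor, shifted little. It rose by 0.18 ± 0.06 at 6 h (adjusted p = 0.0401) and by 0.17 ± 0.05 at 12 h (adjusted p = 0.0231) on the log2 scale. At 24 h it fell, from 271.7, 253.5 and 267.5 CPM with DMSO to 227.7, 188.1 and 209.3 CPM with C59, groups that do not overlap, with a log2 fold change of −0.34 ± 0.07 (adjusted p = 0.0175). Its 6 h call was lost without any 1 of 5 of the 6 libraries (all but DMSO replicate 2), and the log2 fold change then ranged from 0.14 to 0.26 over the 6 omissions. Its 12 h call was lost without DMSO replicate 2, DMSO replicate 3 or C59 replicate 2, and its 24 h call without DMSO replicate 1 or 3.

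Among the ligands, Dll1, which maintains the muscle precursor pool among other roles, moved in both directions. At 12 h it was at 6.289, 7.404 and 9.447 CPM with DMSO and 11.88, 12.9 and 12.64 CPM with C59, with no overlap and a log2 fold change of 0.70 ± 0.15 (adjusted p = 0.00282). The C59 libraries at 12 h thus lay within the range of the DMSO course, between the DMSO mean of 10.8 CPM at 18 h and that of 13.2 CPM at 24 h. At 24 h it was at 12.92, 13.67 and 12.92 CPM with DMSO and 9.624, 10.08 and 8.815 CPM with C59, with every C59 library below the lowest DMSO library and a log2 fold change of −0.46 ± 0.10 (adjusted p = 0.0225). The 24 h call was lost without any 1 of the DMSO libraries or C59 replicate 3, with all 30 libraries in one fit and with limma at either pseudocount, over which settings the value reached −0.28.

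Jag1, the mesenchymal ligand, passed only at 6 h. Its level was then 61.08, 69.13 and 57.62 CPM with DMSO and 76.75, 77.3 and 73.61 CPM with C59, with no overlap and a log2 fold change of 0.27 ± 0.06 (adjusted p = 0.00886), a call that was kept without each of the 6 libraries. At 12 h the groups overlapped, at 75.32, 78.44 and 84.97 CPM with DMSO and 73.33, 88.22 and 101.1 CPM with C59 (0.14 ± 0.10, adjusted p = 0.265).

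Jag2, a ligand of the ectodermal ridge, passed at 12 h and 24 h. At 12 h it was at 47.56, 48.32 and 47.8 CPM with DMSO and 50.83, 55.4 and 70.77 CPM with C59, so that C59 replicate 3 carried much of the difference of 0.30 ± 0.10 (adjusted p = 0.0322). Without that library the value was 0.16 and the call was lost, as it was without any 1 of the DMSO libraries. At 24 h the C59 libraries, 64.91, 56.08 and 58.32 CPM, lay above the DMSO libraries, 46.78, 44.95 and 47.24 CPM, with a log2 fold change of 0.37 ± 0.08 (adjusted p = 0.0133), a call lost without DMSO replicate 1 or 2. Jag2 was also higher in every C59 library at 18 h, 51.4, 54.64 and 72.01 CPM against 44.35, 38.29 and 42.95 CPM, a difference of 0.52 ± 0.14 that did not pass (adjusted p = 0.0558) but did without both libraries that stand apart (0.42, adjusted p = 0.00101).

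Dll4, the ligand of arterial and sprouting endothelium, did not pass at any time. Its 12 h levels overlapped, at 8.684, 9.129 and 9.899 CPM with DMSO and 11.5, 8.532 and 9.334 CPM with C59, for a log2 fold change of 0.08 ± 0.14 (adjusted p = 0.656). At 18 h every C59 library (11.55, 9.84 and 14.34 CPM) was above every DMSO library (8.383, 8.215 and 9.617 CPM), and the value of 0.47 ± 0.16 had an adjusted p of 0.119.

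Of the 3 target genes, Hes1 and Heyl were higher at 12 h and Hey1 was lower. Hey1 was the only member that was lower at 12 h. At 12 h its level was 58.5, 57.95 and 59.4 CPM with DMSO and 42.6, 45.31 and 46.44 CPM with C59, a log2 fold change of −0.39 ± 0.06 (adjusted p = 0.000256). At 18 h it was 61.12, 60.42 and 60.57 CPM with DMSO and 44.9, 37.71 and 30.68 CPM with C59, a log2 fold change of −0.67 ± 0.13 (adjusted p = 0.0217), the widest gap of its course. It was also the only member to pass at 1 h, at 47.43, 45.34 and 48.6 CPM with DMSO and 39.66, 39.65 and 38.24 CPM with C59 (−0.27 ± 0.06, adjusted p = 0.0204). The groups did not overlap at these 3 times, nor at 6 h, where the difference did not pass (−0.11 ± 0.06, adjusted p = 0.186). By 24 h the levels were 53.53, 51.27 and 58.89 CPM with DMSO and 52.16, 56.24 and 53.04 CPM with C59, which overlap. The 1 h call was lost without any 1 of the C59 libraries, where the log2 fold change lay between −0.29 and −0.25 over all omissions. The 18 h call was lost without any 1 of the DMSO libraries or C59 replicate 2, with values from −0.81 to −0.54 over all omissions, and was kept without both libraries that stand apart (−0.53, adjusted p = 0.000217).

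Heyl showed the largest difference of any member at 12 h. Its level was 6.738, 10.58 and 7.693 CPM with DMSO and 15.09, 15.05 and 14.85 CPM with C59, a log2 fold change of 0.85 ± 0.15 (adjusted p = 0.000853). As for Notch1, all 3 C59 libraries of 12 h exceeded every DMSO library of the course, the highest of which held 13.7 CPM. At 18 h the groups still did not overlap, at 9.303, 10.86 and 11.62 CPM with DMSO and 12.3, 15.38 and 14.62 CPM with C59, and the difference of 0.43 ± 0.14 did not pass (adjusted p = 0.0994).

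Hes1, the general Notch target, had the smallest change of the 3 at 12 h. It rose at 6 h from 59.5, 53.56 and 54.31 CPM with DMSO to 63.63, 62.1 and 66.18 CPM with C59 (0.19 ± 0.06, adjusted p = 0.0351). At 12 h the levels were 56.1, 56.73 and 59 CPM with DMSO and 67.5, 60.65 and 67.45 CPM with C59, again without overlap (0.19 ± 0.06, adjusted p = 0.0239). Each of these calls was lost on leaving out any 1 of 4 libraries: DMSO replicates 2 and 3 and C59 replicates 1 and 3 at 6 h, and DMSO replicates 1 and 2 and C59 replicates 1 and 3 at 12 h. At 12 h, in contrast, the calls of Notch1, Dll1, Hey1 and Heyl were kept without each library, with a highest adjusted p of 0.0135 (Dll1) over these and the other alternatives.

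Whether the effect of C59 differed between successive times was tested as an interaction. From 1 h to 6 h the effect on Jag1 rose by 0.35 ± 0.09 (adjusted p = 0.0168), 1 of 10 members upward and 0 downward, against 5.31% and 7.65% of all genes tested. From 6 h to 12 h it rose for Notch1 (0.47 ± 0.14, adjusted p = 0.0233) and Heyl (0.74 ± 0.21, adjusted p = 0.0206) and fell for Hey1 (−0.27 ± 0.08, adjusted p = 0.0194), against 6.59% upward and 11.5% downward. From 12 h to 18 h 0 members passed in edgeR, against 4.94% upward and 3.55% downward. The unadjusted p of edgeR was under 0.05 for 0 members and for 23.5% of all genes. In DESeq2 0 members passed, against 12% of all genes tested. Without both libraries that stand apart at 18 h, 2 passed, Notch1 (−0.48) and Notch3 (−0.26), in a fit in which 15.8% of all genes tested passed. From 18 h to 24 h the effect fell for Notch2 (−0.76 ± 0.19, adjusted p = 0.0277) and Dll1 (−0.89 ± 0.18, adjusted p = 0.0103) and rose for Hey1 (0.64 ± 0.15, adjusted p = 0.0227), against 3.53% upward and 3.43% downward. Leaving out libraries cost several of these calls. The call of Jag1 was lost without C59 replicate 3 of 1 h, that of Notch1 without C59 replicate 2 of 6 h or DMSO replicate 3 of 12 h, and that of Heyl without C59 replicate 1 of 6 h or DMSO replicate 1 of 12 h. That of Hey1 from 6 h to 12 h was lost without DMSO replicate 3 of 6 h or, of 12 h, DMSO replicate 1, DMSO replicate 3 or C59 replicate 1. The call of Dll1 from 18 h to 24 h was kept without each library, and those of Notch2 and Hey1 were each lost without any 1 of 6 of the 12 libraries. In that interval 1 member passed without C59 replicate 2 of 24 h, which stands apart, and also without DMSO replicate 3 of 18 h, DMSO replicate 1 of 24 h or DMSO replicate 2 of 24 h. In these fits 3.37% to 4.37% of all genes tested passed.

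Beyond the 10 members, 40 further genes of the pathway were listed, and 39 were tested. Hes5, a Notch target of neural tissue, was not tested, at 0 to 0.381 CPM. With C59, 1, 5, 11, 1 and 1 of them were higher and 2, 1, 1, 0 and 1 lower at the 5 times in order, against the shares of all genes given above for the members (22% higher and 25.5% lower at 12 h, 8.2% and 11.4% at 6 h), with list medians of the log2 fold change from 0.0035 to 0.0911. Dtx1, a ubiquitin ligase that binds the Notch intracellular domain, changed most at 12 h. Its level was 7.087, 8.962 and 5.883 CPM with DMSO and 17.16, 18.28 and 20.46 CPM with C59, a log2 fold change of 1.35 ± 0.14 (adjusted p = 3.11e-05), and it was the only gene of this list past a log2 fold change of 1. It also passed at 6 h (0.63 ± 0.19, adjusted p = 0.0283) and 18 h (0.51 ± 0.11, adjusted p = 0.0249); the former call was lost without DMSO replicate 1, C59 replicate 1 or C59 replicate 3, and the latter without any 1 library but C59 replicate 3. As with Dll1, its DMSO level climbed over the course, to 19.15, 18.51 and 18.19 CPM at 24 h, so that the C59 level of 12 h was near the DMSO level of 24 h.

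The other named genes of this list act at the membrane, in cleavage or in the nucleus. Lfng, a glycosyltransferase that alters which ligands Notch responds to, rose at 6 h from 11.9 ± 1.13 to 15.5 ± 0.0658 CPM (SD, n = 3) and at 12 h from 15.3 ± 0.412 to 20.0 ± 1.22 CPM. Neurl1a, a ubiquitin ligase for ligand uptake, rose at 6 h from 12.1 ± 1.66 to 16.4 ± 1.12 CPM. Maml2, a coactivator of the Notch transcription complex, rose at 12 h from 23.8 ± 2.68 to 35.3 ± 1.59 CPM, and Psen2, a catalytic subunit of γ-secretase, rose from 6.69 ± 0.27 to 9.81 ± 0.969 CPM. At 1 h the non-canonical ligand Dlk1 rose by 0.26 and the ubiquitin ligase Itch fell by 0.26 on the log2 scale. At 24 h Dtx3 rose by 0.25 and the corepressor Spen fell by 0.26 on the log2 scale. Of these calls, Lfng at 12 h, Maml2, Psen2 and Itch were kept without each library. Lfng at 6 h was lost without DMSO replicate 1, Neurl1a without DMSO or C59 replicate 3, Dlk1 without DMSO replicate 2 or C59 replicate 1, Dtx3 without any 1 of the DMSO libraries or C59 replicate 2, and Spen without any 1 library but C59 replicate 3.

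**Figure D3:**
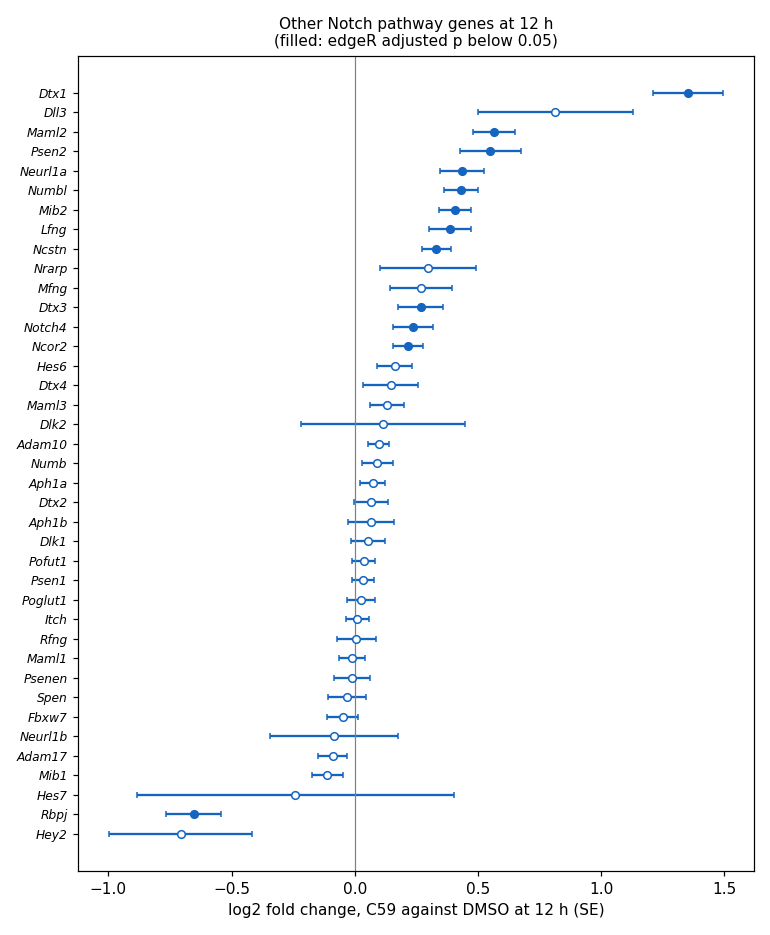
Log2 fold change at 12 h, C59 against DMSO (x axis), of the 39 further Notch pathway genes tested, ordered by value, with bars for the standard error and filled points where the adjusted p was below 0.05. Dtx1 is at the top with 1.35, 11 filled points lie to the right of 0 and 1, Rbpj, lies to the left with −0.65.

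Rbpj, the DNA-binding partner of the Notch intracellular domain, was lower with C59 at 1 h (−0.57 ± 0.07, adjusted p = 0.000287), 6 h (−0.65 ± 0.07, adjusted p = 4.61e-05) and 12 h (−0.65 ± 0.11, adjusted p = 0.000732). Already 1 h after injection it stood at 137.6, 136.9 and 143.2 CPM with DMSO and 92.44, 104.9 and 83.1 CPM with C59. These values need care, because Rbpj has processed pseudogene copies and that named Rbpj-ps3 moved the opposite way: it held 0.313, 1.37 and 1.10 CPM in the same DMSO libraries and 9.29, 7.19 and 10.7 CPM in the C59 libraries. Within groups the pattern was mixed. Among the DMSO libraries of 18 h, Rbpj was at 52.19, 113.9 and 69.8 CPM and Rbpj-ps3 at 14.01, 8.375 and 13.72 CPM, in opposite order, whereas in the C59 libraries of 12 h both had the same order and in those of 18 h the library lowest in Rbpj (84.28 CPM) was also lowest in Rbpj-ps3 (7.815 CPM). In FPKM, for which the authors corrected for reads that map to several places, Rbpj was still 19.1 to 20.1 with DMSO and 11.4 to 14.4 with C59 at 1 h. Reads of near-identical copies can be split between them in counting, so the Rbpj difference is uncertain, and the part of the pseudogene in it was not tested.

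**Figure D4:**
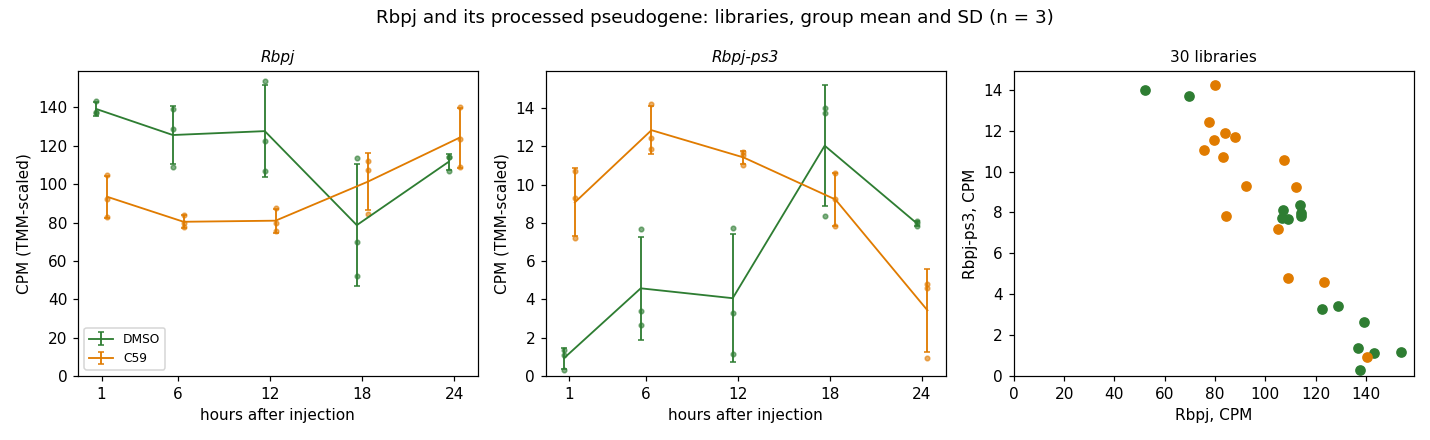
Rbpj (left) and Rbpj-ps3 (middle) in CPM against hours after injection, with points for libraries, lines for means and bars for the SD of 3 libraries, and (right) Rbpj-ps3 against Rbpj in CPM for the 30 libraries, DMSO in green and C59 in orange. Over the 30 libraries those with more Rbpj mostly have less Rbpj-ps3, though not within every group, and the DMSO libraries of 1 h lie at the far end, at 136.9 to 143.2 CPM of Rbpj and 0.313 to 1.37 CPM of Rbpj-ps3.

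In bulk tissue a change in the number of cells of a type and a change in their RNA per cell cannot be told apart. Markers of several cell types passed at 12 h as well, when 22% of all genes tested were higher and 25.5% lower. Of 12 endothelial markers 5 were higher and 0 lower, from −0.03 (Sox18) to 0.49 (Erg) in log2 fold change, and their summed level was 430.7 to 474.3 CPM with DMSO and 534.1 to 589.8 CPM with C59. Of 6 cartilage markers 5 were higher and 0 lower, from 1.05 (Col2a1) to 1.81 (Matn1), and their sum went from 868.0 to 929.1 CPM with DMSO to 1651 to 2356 CPM with C59. Of 9 ectodermal markers tested of 10 (Sp6 was not), 6 were higher and 1, Fgf8 of the apical ridge, was lower (−3.17), with Krt5 highest (0.79), and the sum was 294.2 to 322.7 CPM with DMSO and 376.1 to 505.7 CPM with C59. Muscle markers split: of 8, 3 were higher and 4 lower, from −2.04 for Pax3, of migrating precursors, to 1.56 for Myog, of differentiating muscle, with sums of 221.0 to 237.8 and 218.7 to 272.7 CPM. Of 5 mural cell markers tested of 6, 2 were higher and 1 lower, from −0.19 (Pdgfrb) to 1.79 (Kcnj8), with sums of 191.1 to 213.8 and 178.7 to 202.8 CPM. Of 6 macrophage markers 3 were higher and 0 lower, from 0.19 (Mrc1) to 0.75 (C1qa), with sums of 25.5 to 30.5 and 41.5 to 44.4 CPM. Of 5 neural crest and glial markers tested of 6, 3 were higher and 0 lower, from 0.55 (Fabp7) to 1.23 (Erbb3), with sums of 37.3 to 52.9 and 85.8 to 115.3 CPM. Of 7 limb mesenchyme markers 1 was higher and 4 were lower, from −3.01 (Msx1) to 0.35 (Tbx4), with sums of 1664 to 1758 and 1146 to 1220 CPM. The median log2 fold change of these 7 markers, which include the hindlimb gene Pitx1, was −0.26. No marker had a group mean of 0.

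Marker sums also differed at the other times, given here as DMSO against C59. Of all genes tested 1.14% were higher and 1.61% lower at 1 h, and 8.2% and 11.4% at 6 h. The shares were 3.46% and 3.62% at 18 h, and 2.88% and 3.56% at 24 h. At 1 h the limb mesenchyme sum was 1642 to 1660 against 1532 to 1635 CPM (0 of 7 higher, 1 lower). Hey1 was lower at 1 h too, where 0 of 8 muscle markers were higher and 0 lower. At 6 h the cartilage sum was 735.4 to 800.4 against 905.2 to 1079 CPM (2 of 4 tested higher), the muscle sum 207.2 to 219.5 against 240.6 to 256.1 CPM (2 of 8 higher, 1 lower) and the mural sum 206.6 to 223.7 against 228.5 to 239.4 CPM (1 of 4 tested higher). The neural crest sum was 30.3 to 36.0 against 39.8 to 51.8 CPM (2 of 4 tested higher), and the limb mesenchyme sum 1736 to 1762 against 1141 to 1227 CPM (1 of 7 higher, 3 lower). At 18 h, where Hey1 was lower, 4 of 8 muscle markers were lower and 0 higher, and their sum was 302.0 to 315.0 against 240.9 to 267.1 CPM. The 4 were Pax3, Lbx1, Met and Myf5, genes of muscle precursors, named here after their values were seen. The cartilage sum at 18 h was 968.4 to 1105 against 1473 to 1797 CPM (3 of 6 higher) and the ectodermal sum 292.4 to 314.3 against 361.7 to 425.4 CPM (4 of 9 tested higher, 1 lower). The macrophage sum was 36.9 to 41.8 against 50.8 to 53.9 CPM (2 of 6 higher) and the neural crest sum 66.69 to 79.98 against 93.3 to 111.8 CPM (1 of 5 tested higher). At 24 h Dll1 and Notch3 were lower, Jag2 was higher and Hey1 did not pass (log2 fold change −0.01). Of 8 muscle markers 4 were then lower and 0 higher, with a sum of 353.6 to 384.9 against 285.1 to 331.4 CPM. The mural sum was 190.2 to 195.1 against 147.3 to 172.0 CPM (1 of 5 tested lower) and the endothelial sum 471.6 to 490.3 against 428.4 to 464.5 CPM (1 of 12 lower). The ectodermal sum was 333.5 to 343.2 against 390.4 to 425.9 CPM (3 of 9 tested higher), the cartilage sum 1161 to 1308 against 1393 to 1566 CPM (2 of 6 higher) and the macrophage sum 45.3 to 48.8 against 51.7 to 58.1 CPM (2 of 6 higher). At each of these times the sums of the lists not named overlapped. The part of these cell types in the members' changes was not tested.

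The genes whose course over the 10 group means was most like each member's were ranked by Pearson's r of mean log2 CPM among 12541 genes, as a description in which all points share the same libraries. For Heyl they were Klhdc8b (r = 0.996), Enpp2 (0.987) and the cartilage collagen Col2a1 (0.985). For Hey1 they were Myf5 (0.952), a regulator of muscle commitment, Clmp (0.941) and Tigd3 (0.937). Myf5 went from 12.5 ± 1.02 to 6.26 ± 0.607 CPM at 12 h and from 12.5 ± 0.539 to 5.61 ± 0.46 CPM at 18 h, and was 12.4 ± 1.22 and 11.8 ± 1.98 CPM at 24 h (DMSO and C59, SD, n = 3). Notch1 was most like Zscan2 (0.987), Igsf3 (0.982) and Gdpd1 (0.976), Notch2 like Igf1r (0.983), Akap9 (0.978) and Madd (0.977), and Notch3 like Kdm7a (0.974), Fzd3 (0.971) and Ulk1 (0.971). Of the ligands, Dll1 was most like Pcdh9 (0.989), Casz1 (0.988) and Astn1 (0.987), Jag1 like Trp53i11 (0.957), Glcci1 (0.955) and Runx1t1 (0.942), and Jag2 like Crlf2 (0.980), Inafm2 (0.943) and Sytl1 (0.935). Dll4, with Bnip3 (0.865), Pfkl (0.864) and Espn (0.859), had the least similar nearest genes. Hes1 was most like Gadd45b (0.980), Pkp1 (0.972) and Dennd5a (0.966). Among the members themselves r was 0.916 for Notch1 with Notch2 and 0.916 for Dll1 with Heyl. Among the target genes r was 0.855 for Hes1 with Heyl, 0.417 for Hes1 with Hey1 and 0.046 for Hey1 with Heyl.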

How the data were processed

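PolyA RNA of mouse forelimb buds was sequenced in 30 libraries. The authors trimmed reads with Cutadapt 1.16 and deposited raw gene counts made with STAR 2.7.0e on mm10 and FPKM values made with Cufflinks 2.2.1 (bias and multi-read correction); the count table holds no gene of chromosomes X, Y or M. Libraries were grouped by their labels. Counts of protein-coding genes were tested with edgeR 4.0.16 (R 4.3.3): TMM factors, filterByExpr (minimum count 10, total 15), quasi-likelihood F test, two-sided, each time point on its own 6 libraries, interactions on 12, adjusted p below 0.05 over all genes tested. CPM are TMM-scaled. The method was tested on simulated counts for the 12 h comparison only, with the same dispersion for every gene. The other times and the interactions were not simulated. Alternatives used DESeq2 1.42.0, limma 3.58.1 on log2(FPKM + 1) and log2(FPKM + 0.1), other scalings and filters, and omission of each library.

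Members and lists were chosen with earlier results of these data known. Named were the 10 members, Axin2, the further pathway genes with the largest changes that passed (4 at 6 h and at 12 h, 2 at the other times), the extremes of each marker list at 12 h, and 3 genes of most similar course per member (log2(CPM + 0.5), mean of at least 1 CPM). Depth was 18188636 to 38974885 counts per library, and counting errors cover counting only. Libraries with the same replicate number were not treated as pairs. Positions are from the deposited tables (mm10), marker and pseudogene names from those tables and GENCODE, and promoters from RefSeq (GRCm38.p6).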

Additional observations from a re-analysis of the deposited data

Results flagged for a closer look

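Each value below is a change in the C59 effect (log2 fold change against DMSO) between successive times that passed the interaction test of edgeR. From 1 h to 6 h the effect on Jag1 rose by 0.35 and that on Itch rose by 0.23. From 6 h to 12 h the effect on Notch1 rose by 0.47, that on Heyl rose by 0.74 and that on Hey1 changed by −0.27. From 12 h to 18 h the effect on Dtx1 changed by −0.83 and that on Rbpj by 1.03, and the latter lost its call without any 1 of 10 of the 12 libraries (all but DMSO replicate 2 and C59 replicate 3 of 18 h). From 18 h to 24 h the effect changed by −0.76 for Notch2, −0.89 for Dll1, 0.64 for Hey1 and −0.67 for Dtx1.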

How the results depend on the processing

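The number of members passing in edgeR was 1, 4, 8, 1 and 3 for C59 against DMSO at the 5 times in order, 1, 3, 0 and 3 for the 4 successive interactions, and 8 for DMSO 24 h against 1 h. No member that passed in any alternative changed sign. With the rule on the log2 fold change beyond 1 the numbers were 0 for every comparison and interaction of C59, and 2 for DMSO. With all 30 libraries in one fit, they were 0, 0, 5, 7 and 2 at the 5 times in order, where 1.27%, 12.2%, 42.2%, 27.5% and 4.79% of all genes passed. In the same fit they were 0, 1 and 6 for the interactions from 1 to 6, 6 to 12 and 18 to 24 h, where 5.65%, 12.4% and 16.4% of all genes passed. DESeq2 gave 4 at 18 h (11.3% of all genes) and 2 for the interaction from 1 to 6 h (13.1%). That interaction also gave 2 with upper-quartile factors (12.7%), with no filter on low counts (10.1%) and with a mean of at least 1 CPM (14.3%). No filter gave 2 at 18 h (5.88%). Without both libraries that stand apart at 18 h (added after seeing the data) there were 4 at 18 h and 2 for 12 to 18 h, where 24.6% and 15.8% of all genes passed. Leaving out 1 library at a time gave 0 to 1 at the first time (0 without any C59 library), 1 to 4 at 6 h (1 without DMSO replicate 3, C59 replicate 1 or C59 replicate 3), 5 to 8 at 12 h (5 without DMSO replicate 2 or 3), 0 to 3 at 18 h (0 without any DMSO library or C59 replicate 2, 2 without C59 replicate 3, 3 without C59 replicate 1) and 0 to 3 at 24 h (0 without DMSO replicate 1, 1 without DMSO replicate 2 or 3). Over these omissions 1.4% to 5.15%, 11.8% to 23.5%, 38.1% to 45.4%, 1.4% to 16.2% and 1.92% to 7.2% of all genes passed at the 5 times in order. For the interactions the ranges were 0 to 3, 1 to 3, 0 to 0 and 1 to 4, and for DMSO 7 to 9. There 8.79% to 14.5%, 13.1% to 18.3%, 4.73% to 15.3% and 3.37% to 14.8% of all genes passed for the interactions, and 52.5% to 58.2% for DMSO. Between 1 and 6 h, 0 passed without C59 replicate 3 of 1 h, 2 without DMSO replicate 1 of 1 h or of 6 h and 3 without DMSO replicate 2 of 6 h; between 6 and 12 h, 1 passed without DMSO replicate 1 of 12 h. With upper-quartile factors the interaction of Hey1 from 6 to 12 h no longer passed. The causes were not tested. With the replicate block, which pairs libraries by number alone, 0, 2, 8, 1 and 4 members passed at the 5 times in order. There 1.99%, 16.3%, 49.1%, 3.56% and 5.57% of all genes passed. Deviations from the group means were correlated over genes between DMSO and C59 libraries of a time. The correlation was −0.294 to 0.171 for libraries of the same number and −0.199 to 0.264 for those of different numbers. At 12 h it was 0.0425 to 0.171 for the same number. These values cannot decide whether the numbers mark pairs. Depth limits Dll1, Heyl and Dll4 most.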
